A study of Homo sapiens with 24 samples.

Results

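The genes described here encode the subunits of Mediator and of RNA polymerase II (Pol II). They were taken by symbol: MED plus a number, with or without a final L, then POLR2 plus a single letter up to L, and the kinase genes CDK8, CDK19 and CCNC. This gave 44 of the 14114 genes in the deposited table, 32 for Mediator and 12 for Pol II. MED12L was not among them. RNA had been sequenced from 3 established human breast cancer lines labelled triple-negative and basal, namely MDA-MB-157, MDA-MB-468 and MDA-MB-231. Where 3 values are given for the lines, they stand in the order of the line numbers. Cells of each line were kept for 3 h in DMSO (the solvent control), in thalidomide at 1000 nM, in BETi-211 at 1000 nM or in BETd-246 at 100 nM. BETi-211 is an inhibitor of the BET bromodomain proteins, which bind acetylated chromatin, and BETd-246 is a degrader of the same proteins. The series design names both DMSO and thalidomide as controls, so each of the 12 groups of line and treatment held 2 libraries, described as independent biological replicates, and each line had 4 control libraries.

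Mediator is the large complex that passes signals from DNA-bound activators to Pol II. Its head and middle modules touch the polymerase, its tail meets activators, MED14 is the scaffold that joins these parts, and a separable module holds the kinase CDK8 or CDK19 with cyclin C. Pol II itself is built of subunits of its own and of subunits shared with Pol I and Pol III, and its largest subunit carries the repeated C-terminal domain (CTD) that is phosphorylated during transcription.

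Levels are FPKM, that is, fragments per transcript length and per library size, so they are relative within a library, and fewer cells of a type and less RNA per cell cannot be told apart. Changes are log2 differences of FPKM + 1 fitted with limma, which understate changes where FPKM is low. The threshold for a call was an adjusted p of 0.05 (Benjamini-Hochberg, over all 14114 genes), and "rose" and "fell" are used of called genes only. Between both libraries of a group, log2 values correlated at 0.9919 in MDA-MB-231 with thalidomide and 0.9964 to 0.9985 in the other groups. Thalidomide library 1 of MDA-MB-231 stood apart, with 78 genes at least 2-fold from the other controls of its line against 1 to 19 in the other control libraries, and POLR2A was the only member among the 78. Of the markers checked against the label, KRT5, KRT14 and KRT17, keratins of basal epithelium, averaged 751.9, 24.7 and 1005 FPKM in the MDA-MB-468 controls and less than 1 FPKM in the other lines. KRT6A, EPCAM, CDH1 and CDH3 were also highest in MDA-MB-468, with at most 3.59 FPKM in the other lines. Other epithelial genes were expressed more widely. KRT8 averaged 165.3, 159.5 and 1306 FPKM in the lines, KRT18 302.5, 221.1 and 1148, and EGFR 10.3, 49.8 and 738.1. KRT19 averaged 0.0248, 73.2 and 1388 FPKM, and ERBB2 17.7, 18.5 and 12.4 FPKM. VIM, a mesenchymal filament gene, averaged 1996 FPKM in MDA-MB-157 and 891.1 in MDA-MB-231, but 12.3 in MDA-MB-468. MDA-MB-157 also carried fibroblast genes (COL3A1 354.1, LUM 55.3 FPKM) and CD14 at 56.6 FPKM. ESR1, PGR, PECAM1 and PTPRC were not found by symbol among the genes of the table, so they were not analysed here.

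On the FPKM as deposited, most of the members that fell with BETd-246 were Mediator genes, which make up 32 of the 44, and most of those that rose were Pol II genes. The parts were not compared by a test, and the count of rises depended on the scaling, with 18, 19 and 18 under median-of-ratios scaling. In MDA-MB-157, 16 members fell and 5 rose, against 32.4% and 19% of all genes. In MDA-MB-231, 17 fell and 6 rose, against 33.3% and 14.8% of all genes. In MDA-MB-468, 17 fell and 8 rose, against 33.7% and 20.1%. The members' shares are therefore near those of all genes, and the median change of the 44 members was -0.094, -0.115 and -0.058 in the 3 lines beside -0.027, -0.047 and -0.029 over all genes. By part, 15, 16 and 16 of the 32 Mediator members fell and 1, 1 and 3 rose, whereas 1, 1 and 1 of the 12 Pol II members fell and 4, 5 and 5 rose.

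With BETi-211, 19 members fell and 6 rose in MDA-MB-157 (30.9% and 14.9% of all genes), 21 fell and 7 rose in MDA-MB-231 (31.4% and 18.7%), and 21 fell and 13 rose in MDA-MB-468 (32.5% and 21.3%). Of the 32 Mediator members, 19, 20 and 20 fell and 4, 4 and 5 rose, and of the 12 Pol II members 0, 1 and 1 fell and 2, 3 and 8 rose. The median change of the 44 members was -0.096, -0.156 and -0.084, beside -0.033, -0.031 and -0.014 over all genes. BETi-211 and BETd-246 were set against the same 4 control libraries in each line, so their lists are not independent of each other. Averaged over the lines, 20 members fell and 10 rose with BETd-246 (42.2% and 27.9% of all genes), and 22 fell and 12 rose with BETi-211 (40.6% and 26.6%). The direct contrast of the compounds called 31 on this average (64.1%).

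Scaling bears on the balance of rises and falls. Median-of-ratios scaling moved the median of all genes with BETd-246 from -0.027 to 0.09 in MDA-MB-157, from -0.047 to 0.079 in MDA-MB-231 and from -0.029 to 0.089 in MDA-MB-468. The share of higher genes among all called genes was then 64.7%, 65% and 64.1%, against 37%, 30.7% and 37.4% on the FPKM as deposited. Quantile normalization gave 62%, 62.1% and 62.4%, and equal FPKM totals gave 15.8%, 9.88% and 17.9%. With BETi-211 the shares as deposited were 32.6%, 37.4% and 39.6%, and 50.5%, 53.6% and 54.4% with median-of-ratios scaling. Small changes, such as those of most Pol II genes, are close to this shift in size, while 12 of 16, 11 of 17 and 11 of 17 falls with BETd-246 held under all 3 other scalings. The same held for 15 of 19, 16 of 21 and 14 of 21 falls with BETi-211. Of the rises, 1 of 5, 1 of 6 and 5 of 8 held with BETd-246 and 6 of 6, 5 of 7 and 8 of 13 with BETi-211. Falls with BETd-246 that were lost under at least 1 other scaling were those of MED1, MED6, MED20 and MED21 in MDA-MB-157, of the same genes with MED15 and MED28 in MDA-MB-231, and of MED1, MED4, MED26, MED30, MED31 and POLR2D in MDA-MB-468. With BETi-211 they were those of MED1, MED13L, MED27 and MED28 in MDA-MB-157, of MED4, MED11, MED12, MED30 and POLR2D in MDA-MB-231, and of MED11, MED12, MED13L, MED23, MED28, MED31 and POLR2D in MDA-MB-468. The rises with BETd-246 that held were MED24 in MDA-MB-157, POLR2G in MDA-MB-231 and, of the 8 called with MDA-MB-468 cells, all but MED27, POLR2F and POLR2G.

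**Figure D1:**
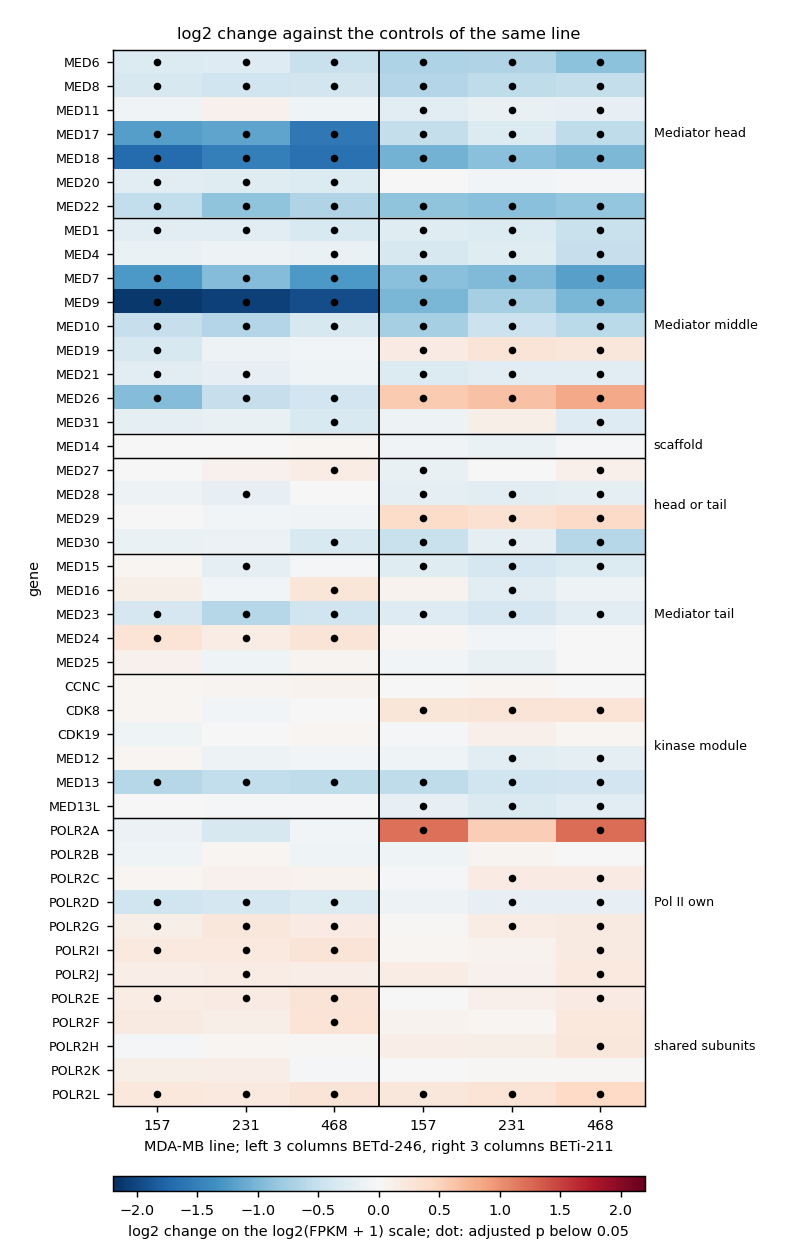
log2 change of each of the 44 genes (rows, by module) against the 4 control libraries of the same line, for BETd-246 (left 3 columns) and BETi-211 (right 3 columns) in the 3 lines; the color runs from blue (lower) to red (higher), and dots mark adjusted p below 0.05. The deepest blue is MED9 with BETd-246 (-2.13, -2.06 and -1.95) and the deepest red is POLR2A with BETi-211 in MDA-MB-468 (1.23) and MDA-MB-157 (1.22).

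In all 3 lines, 14 members fell with BETd-246 (31.8% of members, 23.6% of all genes): MED1, MED6, MED7, MED8, MED9, MED10, MED13, MED17, MED18, MED20, MED22, MED23, MED26 and POLR2D. With BETi-211, 18 fell in all 3 lines (40.9% of members, 19.9% of all genes), namely MED1, MED4, MED6, MED7, MED8, MED9, MED10, MED11, MED13, MED13L, MED15, MED17, MED18, MED21, MED22, MED23, MED28 and MED30. The members that rose in all 3 lines were MED24, POLR2E, POLR2G, POLR2I and POLR2L with BETd-246 (11.4% of members, 8.59% of all genes). They were CDK8, MED19, MED26, MED29 and POLR2L with BETi-211 (11.4%, 8.26%).

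In the head module, which contacts Pol II and the initiation factors, 6 of 7 genes fell with each compound in every line. MED11 was the exception with BETd-246 (-0.07, 0.09 and -0.09, not called) and MED20 with BETi-211 (0.02, -0.07 and -0.05, not called). Of all genes, 32.4%, 33.3% and 33.7% fell with BETd-246 and 30.9%, 31.4% and 32.5% with BETi-211. No module was compared with all genes by a test. The MED11 changes with BETi-211 were -0.24, -0.17 and -0.18, and the call was lost in MDA-MB-231 without BETi-211 library 2 (-0.10) and in MDA-MB-468 without BETi-211 library 1 (-0.10). MED18, a head subunit that pairs with MED20, lay at 12.5, 11.4, 10.9 and 11.1 FPKM in the 4 MDA-MB-157 controls, at 4.77 and 5.34 with BETi-211 and at 2.95 and 2.74 with BETd-246. MED18 in MDA-MB-231 was 5.88, 5.51, 5.57 and 6.57 in the controls, 2.53 and 2.71 with BETi-211 and 1.22 and 1.68 with BETd-246. MED18 in MDA-MB-468 was 7.42, 6.44, 5.65 and 6.36 in the controls, 2.497 and 2.98 with BETi-211 and 1.42 and 1.36 with BETd-246. The 3 treatments did not overlap in any line, and BETd-246 was always the lowest. MED18 changed by -1.70, -1.496 and -1.64 with BETd-246 (SE 0.08) and by -1.04, -0.92 and -0.995 with BETi-211, with limma adjusted p at most 1.29e-07.

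MED17, the central architectural subunit of the head, was 8.46, 8.58, 7.58 and 8.14 FPKM in the MDA-MB-157 controls, 5.62 and 5.23 with BETi-211 and 2.97 and 2.99 with BETd-246. MED17 in MDA-MB-231 was 17.2, 16.8, 16.6 and 17.6 in the controls, 13.6 and 13.7 with BETi-211 and 6.83 and 7.37 with BETd-246. MED17 in MDA-MB-468 was 8.07, 7.92, 7.54 and 7.77 in the controls, 5.03 and 4.95 with BETi-211 and 1.93 and 1.98 with BETd-246. The groups again did not overlap, and the mean FPKM with BETd-246 was 36.4%, 41.7% and 24.99% of the controls. The falls were 1.21, 1.16 and 1.58 with BETd-246 (SE 0.04, largest adjusted p 5.57e-13 with limma) and 0.52, 0.30 and 0.56 with BETi-211. MED17 fell further in MDA-MB-468 than in MDA-MB-157 (difference 0.37, SE 0.06, adjusted p 0.000201) or in MDA-MB-231 (difference 0.42, adjusted p 5.67e-05).

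Among the other head genes, MED22 fell by 0.54, 0.89 and 0.66 with BETd-246 and by 0.89, 0.91 and 0.85 with BETi-211. Its MDA-MB-231 libraries were 27.9, 26.5, 26.3 and 28.1 FPKM in the controls, 13.7 and 14.3 with BETi-211 and 14.1 and 14.4 with BETd-246, so that the compounds overlapped each other and neither overlapped the controls. MED8 fell by 0.36, 0.44 and 0.40 with BETd-246 and by 0.64, 0.56 and 0.53 with BETi-211. MED6, a conserved head subunit, fell by 0.68, 0.66 and 0.90 with BETi-211 and by 0.30, 0.28 and 0.49 with BETd-246. With BETd-246 the MED6 call was lost under quantile normalization in MDA-MB-157 (-0.12) and MDA-MB-231 (-0.14), and under median-of-ratios scaling in MDA-MB-231 (-0.09). MED20 fell by 0.23, 0.26 and 0.30 with BETd-246, and its call was lost under quantile normalization in MDA-MB-157 (-0.06) and under median-of-ratios scaling in MDA-MB-157 (-0.08) and MDA-MB-231 (-0.07).

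The middle module joins head and tail and also contacts Pol II. Of its 9 genes, 7, 6 and 7 fell and none rose with BETd-246, while 6, 6 and 7 fell and 2 rose with BETi-211. Of all genes, 32.4%, 33.3% and 33.7% fell and 19%, 14.8% and 20.1% rose with BETd-246. With BETi-211, 30.9%, 31.4% and 32.5% of all genes fell and 14.9%, 18.7% and 21.3% rose. MED9, a small subunit of this module, showed the deepest falls of the 44 members with BETd-246. It was 14.04, 13.5, 13.7 and 13.8 FPKM in the MDA-MB-157 controls, 6.49 and 6.28 with BETi-211 and 2.42 and 2.34 with BETd-246. MED9 in MDA-MB-231 was 7.93, 7.93, 7.59 and 8.34 in the controls, 4.23 and 4.54 with BETi-211 and 1.26 and 1.03 with BETd-246. MED9 in MDA-MB-468 was 7.03, 7.30, 7.18 and 7.42 in the controls, 3.02 and 3.18 with BETi-211 and 1.21 and 1.04 with BETd-246. In every line the 3 levels were fully separated. Mean FPKM with BETd-246 was 17.3%, 14.4% and 15.6% of the controls, and the change on the log2(FPKM + 1) scale was -2.13, -2.06 and -1.95 (SE 0.05, largest adjusted p 1.76e-14 with limma). The changes with BETi-211 were -0.999, -0.73 and -1.01.

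MED7, a middle subunit at the joint towards MED21, lay at 17.4, 19.1, 15.7 and 15.9 FPKM in the MDA-MB-157 controls, 8.70 and 8.33 with BETi-211 and 6.30 and 6.68 with BETd-246. MED7 in MDA-MB-231 was 9.07, 8.88, 8.38 and 9.25 in the controls, 4.04 and 4.04 with BETi-211 and 4.73 and 3.56 with BETd-246. MED7 in MDA-MB-468 was 16.1, 15.8, 14.6 and 14.6 in the controls, 6.24 and 5.98 with BETi-211 and 5.77 and 5.77 with BETd-246. Treated libraries lay below all controls of their line, and in MDA-MB-231 the compounds overlapped. The falls were 1.27, 0.95 and 1.26 with BETd-246 (SE 0.07) and 0.92, 0.97 and 1.19 with BETi-211, with limma adjusted p at most 1.02e-08.

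MED10 fell by 0.51, 0.64 and 0.36 with BETd-246 and by 0.73, 0.47 and 0.59 with BETi-211. MED1, the subunit that nuclear receptors bind, lay at 14.01, 15.1, 15.2 and 14.1 FPKM in the MDA-MB-468 controls, at 10.5 and 9.75 with BETi-211 and at 11.3 and 11.5 with BETd-246. Its change was -0.25, -0.23 and -0.33 with BETd-246 and -0.27, -0.31 and -0.48 with BETi-211 (SE 0.08), all called with limma. With BETd-246 the MED1 call was lost in all 3 lines under quantile normalization (-0.14, -0.20 and -0.13) and median-of-ratios scaling (-0.09, -0.03 and -0.15). It was also lost in MDA-MB-157 without DMSO library 2 (-0.21), BETd-246 library 1 (-0.26) or 2 (-0.23), and in MDA-MB-231 without DMSO library 2 (-0.22), thalidomide library 1 (-0.13), BETd-246 library 1 (-0.19) or 2 (-0.27). With BETi-211 in MDA-MB-157 it was lost without BETi-211 library 1 (-0.24), under quantile normalization (-0.18) and under median-of-ratios scaling (-0.19), and in MDA-MB-231 with that line fitted alone (-0.31, adjusted p 0.0575). MED4 passed in all 3 lines with BETi-211 (-0.36, -0.27 and -0.50), and MED21 likewise (-0.30, -0.23 and -0.23). The MED4 call in MDA-MB-231 was lost under quantile normalization (-0.17), and the MED21 call without BETi-211 library 2 in MDA-MB-468 (-0.19) or MDA-MB-231 (-0.17). MED31 passed in MDA-MB-468 alone with either compound (-0.34 with BETd-246 and -0.29 with BETi-211). The first call was lost without BETd-246 library 2 (-0.24), and the other without DMSO library 1 (-0.28), thalidomide library 1 or 2 (-0.29 each) or BETi-211 library 1 (-0.36) or 2 (-0.23). In MDA-MB-231, MED31 was called with BETd-246 without thalidomide library 1 (-0.30) and with BETi-211 without thalidomide library 2 (0.28). The latter fit leaves thalidomide library 1 alone in its group. MED31 was 14.95 FPKM in that library, against a mean of 20.7 in the other controls of the line. For MED31, 58.3% of the exon bases lie opposite TXNDC17, and the libraries do not mark strand.

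MED26 moved in opposite directions with the compounds. It is the metazoan Mediator subunit that can recruit the super elongation complex and that is present on Pol II-bound Mediator. MED26 in MDA-MB-157 was 3.33, 2.65, 3.43 and 3.61 FPKM in the controls, 5.21 and 5.36 with BETi-211 and 1.21 and 1.16 with BETd-246. MED26 in MDA-MB-231 was 3.30, 3.56, 3.45 and 3.71 in the controls, 6.27 and 5.76 with BETi-211 and 2.32 and 2.02 with BETd-246. MED26 in MDA-MB-468 was 3.39, 3.21, 3.70 and 4.02 in the controls, 7.002 and 7.21 with BETi-211 and 2.172 and 2.69 with BETd-246. The controls of every line therefore lay between the compounds with no overlap. MED26 rose by 0.57, 0.64 and 0.83 with BETi-211 (SE 0.07, largest adjusted p 5.12e-06 with limma) and fell by 0.95, 0.51 and 0.42 with BETd-246 (largest adjusted p 0.00011). Under quantile normalization the fall in MDA-MB-468 was not called (-0.10, adjusted p 0.226). Its fall with BETd-246 was larger in MDA-MB-157 than in MDA-MB-231 (difference -0.44, SE 0.10, adjusted p 0.0078) and MDA-MB-468 (difference -0.54, adjusted p 0.00145). These levels are low, near 3 FPKM in the controls. Same-strand exon overlaps of MED26 with AC008764.1, AC008764.4 and AC008764.7 sum to 2351 bases, beside 5330 exon bases in all. Overlaps on the opposite strand come to 11.9%. What these genes add to the MED26 values was not tested.

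MED19, a middle subunit, rose with BETi-211 by 0.18, 0.28 and 0.24. Its rise in MDA-MB-157 was not called without BETi-211 library 2 (0.17, adjusted p 0.0706) or against thalidomide alone (0.11). With BETd-246 it fell in MDA-MB-157 by 0.35 and was -0.11 and -0.06, not called, in the other lines.

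**Figure D2:**
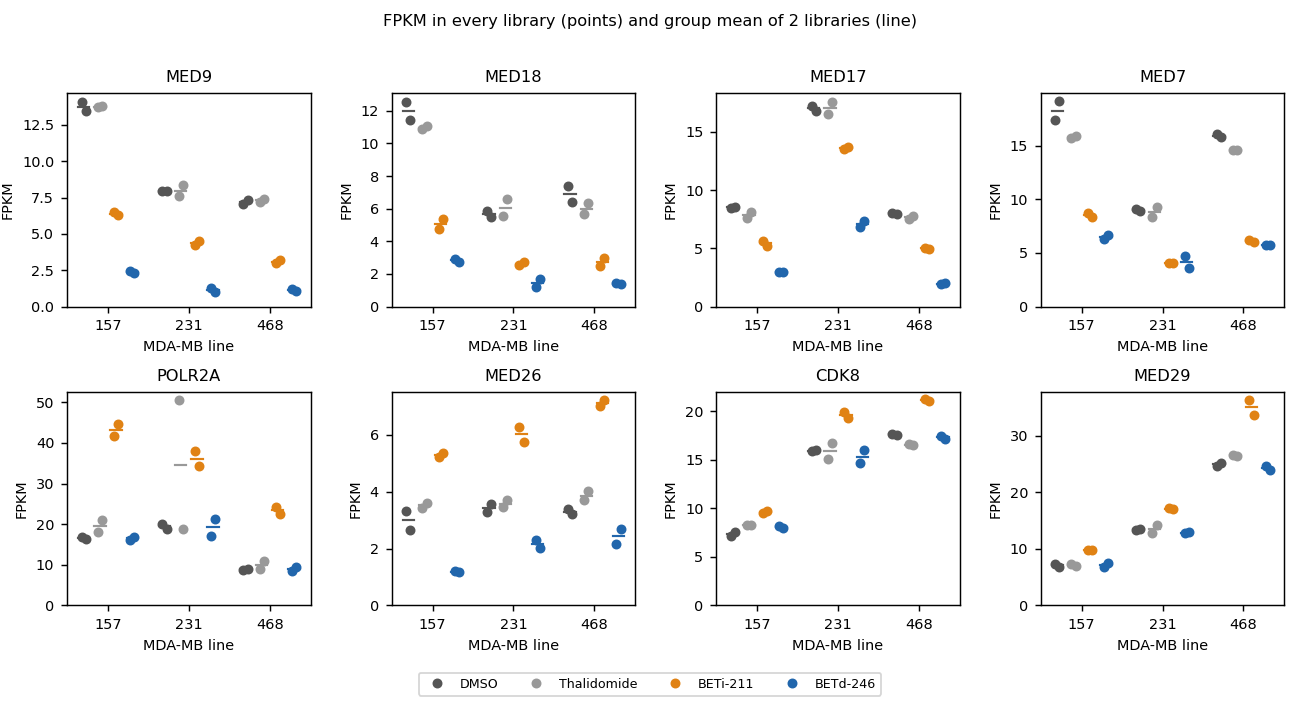
FPKM of 8 members in each of the 24 libraries (points) by line and treatment, with the mean of the 2 libraries of each group as a short line; each vertical axis starts at 0. MED9, MED18 and MED17 step down from controls to BETi-211 to BETd-246. MED7 is low with both compounds, and in MDA-MB-157 it is lower with BETd-246 than with BETi-211. POLR2A, MED26, CDK8 and MED29 are higher with BETi-211, with a single MDA-MB-231 thalidomide library of POLR2A at 50.5 FPKM.

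The RefSeq promoters (GRCh38.p14, 250 bases before to 50 after the start) of the 3 deepest falls with BETd-246 on the average over lines are shown because these genes fell together in all 3 lines, and those of MED26 and POLR2A because they were high with BETi-211. Capitals mark matches, on either strand and with overlapping matches counted separately, to the E box CACGTG, the CRE TGACGTCA, the AP-1 motif TGANTCA, the ETS motif CCGGAAG, the GC box GGGCGG and the palindromic NRF1 motif. CCAAT and TATAAA were also searched and are absent from these windows.
MED9, chr17:17476750-17477049, plus strand: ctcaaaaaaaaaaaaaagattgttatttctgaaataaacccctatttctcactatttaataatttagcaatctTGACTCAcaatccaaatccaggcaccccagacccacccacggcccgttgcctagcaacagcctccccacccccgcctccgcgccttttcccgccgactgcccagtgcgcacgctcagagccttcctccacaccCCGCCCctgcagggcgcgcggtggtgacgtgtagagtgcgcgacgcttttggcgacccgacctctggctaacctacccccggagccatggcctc
MED18, chr1:28328790-28329089, plus strand: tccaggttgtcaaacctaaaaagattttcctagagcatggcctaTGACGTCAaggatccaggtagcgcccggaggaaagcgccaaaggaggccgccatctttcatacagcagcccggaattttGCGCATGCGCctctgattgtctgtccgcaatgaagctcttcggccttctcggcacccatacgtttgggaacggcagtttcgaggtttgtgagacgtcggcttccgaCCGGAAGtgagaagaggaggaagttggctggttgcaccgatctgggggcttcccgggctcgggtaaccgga
MED17, chr11:93784032-93784331, plus strand: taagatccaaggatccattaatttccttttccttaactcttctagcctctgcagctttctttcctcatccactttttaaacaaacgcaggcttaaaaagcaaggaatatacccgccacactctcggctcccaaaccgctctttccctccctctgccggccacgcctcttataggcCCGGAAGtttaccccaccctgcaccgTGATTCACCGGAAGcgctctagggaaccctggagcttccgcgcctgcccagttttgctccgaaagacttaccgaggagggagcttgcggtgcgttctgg
MED26, chr19:16628155-16628454, minus strand: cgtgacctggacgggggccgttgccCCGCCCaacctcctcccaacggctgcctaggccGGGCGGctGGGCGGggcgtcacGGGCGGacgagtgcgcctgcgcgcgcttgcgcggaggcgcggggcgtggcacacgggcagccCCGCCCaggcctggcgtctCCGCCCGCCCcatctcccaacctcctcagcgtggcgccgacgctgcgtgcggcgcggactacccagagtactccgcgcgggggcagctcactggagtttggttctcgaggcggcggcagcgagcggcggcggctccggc
POLR2A, chr17:7484116-7484415, plus strand: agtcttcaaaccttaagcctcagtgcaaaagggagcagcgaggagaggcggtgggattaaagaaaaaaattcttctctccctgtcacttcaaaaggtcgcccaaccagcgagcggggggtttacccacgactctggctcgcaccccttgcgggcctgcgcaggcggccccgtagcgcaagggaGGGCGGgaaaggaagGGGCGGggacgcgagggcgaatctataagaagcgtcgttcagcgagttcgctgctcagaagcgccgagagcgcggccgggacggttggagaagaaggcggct
MED9 held 1 AP-1 match and 1 GC box, MED18 held 1 CRE, 1 NRF1 and 1 ETS match, and MED17 held 1 AP-1 and 2 ETS matches. MED26 held 7 GC boxes and POLR2A 2. No motif was thus shared by MED9, MED18 and MED17. Promoters were listed for 32 of the 44 members. Each member was counted on 1 promoter, the first listed, but the other sets on every listed promoter. The shares that follow are therefore on unlike units. The ETS motif was found in 10 of these 32 (31.2%), in 17% of 14018 promoters of genes of the table and in 10.3% of all 35116 promoters. The GC box was found in 65.6%, 66.6% and 45.0%, the CRE in 3.1%, 2.8% and 1.8%, AP-1 in 6.2%, 5.2% and 7.7%, NRF1 in 6.2%, 1.9% and 1.2%, and the E box in 6.2%, 9.2% and 7.3%. The CCAAT box was found in 28.1%, 34.7% and 34.6%, and the TATA box in 6.2%, 6.1% and 11.5%. These are descriptions of letters, not of binding.

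The scaffold gene MED14 was not called with either compound in any line. Its changes ran from -0.14 to 0.04, but with BETi-211 in MDA-MB-231 it was called without thalidomide library 2 (-0.22) and with equal FPKM totals (-0.22). Leaving out thalidomide library 2 leaves library 1 alone in its group. MED14 was 25.9 FPKM in library 1, against a mean of 21.7 in the other controls of the line. The tail, which meets activators, was mixed. MED23, a target of growth-factor signalling through ELK1, fell by 0.37, 0.63 and 0.44 with BETd-246 and by 0.28, 0.36 and 0.26 with BETi-211. The BETi-211 call of MED23 in MDA-MB-468 was lost under quantile normalization (-0.13). MED24, its neighbour in the complex, was 26.0, 23.5, 26.4 and 26.6 FPKM in the MDA-MB-157 controls, 26.4 and 26.1 with BETi-211 and 31.4 and 32.3 with BETd-246. It rose with BETd-246 by 0.31, 0.16 and 0.29 (largest adjusted p 0.00402 with limma), and in every line both BETd-246 libraries were above all controls. The MDA-MB-231 rise was not called without BETd-246 library 1 (0.14, adjusted p 0.0516) or with equal FPKM totals (0.06). With BETi-211, MED24 was 0.04, -0.06 and 0.01, not called. MED15, a tail subunit bound by SREBP and SMAD factors, fell with BETi-211 by 0.27, 0.37 and 0.29, with the calls lost against DMSO alone in MDA-MB-468 (-0.19) and MDA-MB-157 (-0.16). MED25 was not called with either compound.

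Of the genes placed in head or tail by different sources, MED29 rose with BETi-211. It was 7.39, 6.84, 7.29 and 6.92 FPKM in the MDA-MB-157 controls, 9.73 and 9.84 with BETi-211 and 6.74 and 7.58 with BETd-246, the last overlapping the controls. The rises were 0.41, 0.33 and 0.43 (SE 0.05, largest adjusted p 2.63e-05 with limma). MED30, on chromosome 8, was 8.57, 7.69, 8.14 and 8.11 FPKM in the controls, 5.33 and 4.47 with BETi-211 and 6.90 and 5.64 with BETd-246 in MDA-MB-468. It fell with BETi-211 by 0.49 in MDA-MB-157 and 0.63 in MDA-MB-468. Its change of -0.21 in MDA-MB-231 had an adjusted p of 0.0496 and was not called without DMSO library 1 (-0.22), DMSO library 2 (-0.20), thalidomide library 2 (-0.16), BETi-211 library 1 (-0.25) or BETi-211 library 2 (-0.18). MED28 was -0.22, -0.23 and -0.22 with BETi-211, each called, and was not called in MDA-MB-157 without BETi-211 library 1 (-0.14) or in MDA-MB-468 without BETi-211 library 2 (-0.16). Of the exon bases of MED28, 32.1% lie opposite FAM184B. With BETi-211, MED27 was called in MDA-MB-157 (-0.17, lower) and in MDA-MB-468 (0.11, higher), but the latter call was lost whichever of its 6 libraries was left out (0.11 in each case), and the former without BETi-211 library 2 (-0.13).

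The kinase module, which reversibly blocks the contact of Mediator with Pol II, changed in a few genes. CDK8, its kinase, was 7.13, 7.54, 8.32 and 8.34 FPKM in the MDA-MB-157 controls, 9.48 and 9.76 with BETi-211 and 8.19 and 8.03 with BETd-246. CDK8 in MDA-MB-231 was 15.9, 16.01, 15.1 and 16.7 in the controls, 19.9 and 19.3 with BETi-211 and 14.7 and 15.97 with BETd-246. CDK8 in MDA-MB-468 was 17.7, 17.6, 16.6 and 16.6 in the controls, 21.3 and 21.03 with BETi-211 and 17.5 and 17.1 with BETd-246. BETi-211 libraries lay above all controls in each line, and BETd-246 libraries overlapped them. CDK8 rose with BETi-211 by 0.27, 0.28 and 0.29 (SE 0.04, largest adjusted p 3.2e-05 with limma). With BETd-246 it was 0.05, -0.05 and 0.02, not called, but median-of-ratios scaling gave called values of 0.19, 0.14 and 0.19.

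CDK19, the paralog of CDK8, and CCNC, their cyclin, were not called with either compound as deposited. CDK19 in MDA-MB-231 was 4.16, 4.38, 5.14 and 4.33 FPKM in the controls, 5.25 and 4.67 with BETi-211 and 4.40 and 4.44 with BETd-246. CCNC in MDA-MB-231 was 46.1, 44.7, 35.9 and 46.0 FPKM in the controls, 44.2 and 44.0 with BETi-211 and 44.8 and 44.8 with BETd-246. Treated and control libraries overlapped for both genes. CDK19 changes ranged from -0.09 to 0.12 and those of CCNC from 0.00 to 0.07. Under median-of-ratios scaling CCNC was called with BETd-246 in all 3 lines (0.21, 0.26 and 0.26). For CDK19 with BETd-246 in MDA-MB-231, the change of -0.02 turned to 0.28 under quantile normalization. In MDA-MB-231 with BETi-211, CDK19 was called without thalidomide library 1 (0.17) or BETi-211 library 2 (0.19). Without thalidomide library 2, CCNC was called there with either compound (0.15 with BETd-246 and 0.13 with BETi-211). That fit leaves thalidomide library 1, where CCNC was 35.9 FPKM, alone in its group. MED13, the subunit that tethers the kinase module, was 43.0, 46.5, 42.6 and 43.1 FPKM in the MDA-MB-157 controls, 29.3 and 29.8 with BETi-211 and 28.1 and 28.1 with BETd-246. MED13 in MDA-MB-231 was 21.6, 21.6, 24.8 and 21.2 in the controls, 16.8 and 15.5 with BETi-211 and 14.9 and 15.03 with BETd-246. MED13 in MDA-MB-468 was 17.2, 18.3, 16.6 and 16.3 in the controls, 12.3 and 12.7 with BETi-211 and 10.9 and 11.9 with BETd-246. All treated libraries were below all controls. MED13 fell by 0.62, 0.54 and 0.55 with BETd-246 and by 0.55, 0.44 and 0.42 with BETi-211 (SE 0.05, largest adjusted p 4.83e-06 with limma). Its paralog MED13L fell with BETi-211 (0.18, 0.32 and 0.23), the MDA-MB-157 call being lost without BETi-211 library 2 (-0.17) and under median-of-ratios scaling (-0.10). Under quantile normalization it was lost there (-0.0935) and in MDA-MB-468 (-0.0855). MED12, the activator of CDK8 and the gene mutated in uterine leiomyoma, was 5.62, 6.49, 6.40 and 7.10 FPKM in the controls, 5.26 and 5.57 with BETi-211 and 5.81 and 6.40 with BETd-246 in MDA-MB-468. With BETi-211 it was lower in MDA-MB-468 (-0.20) and MDA-MB-231 (-0.24), both called, and with BETd-246 it was not called. The MDA-MB-231 call was lost without BETi-211 library 2 (-0.21). The MDA-MB-468 call was lost without DMSO library 2 (-0.16), thalidomide library 2 (-0.17), BETi-211 library 1 (-0.17) or BETi-211 library 2 (-0.24).

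POLR2A, the largest Pol II subunit and carrier of the CTD, was the member with the largest rise. It was 16.97, 16.3, 18.04 and 21.1 FPKM in the MDA-MB-157 controls, 41.8 and 44.8 with BETi-211 and 16.1 and 16.8 with BETd-246. POLR2A in MDA-MB-468 was 8.84, 8.96, 8.93 and 10.97 in the controls, 24.3 and 22.6 with BETi-211 and 8.57 and 9.47 with BETd-246. In both lines the BETi-211 libraries were above every control and the BETd-246 libraries overlapped the controls. POLR2A rose with BETi-211 by 1.22 (SE 0.23, limma adjusted p 0.000384) and by 1.23 (adjusted p 0.000282), a mean FPKM 2.39 and 2.49 times that of the controls. In MDA-MB-231 the controls were 20.2 and 18.9 with DMSO and 50.5 and 18.8 with thalidomide, beside 38.0 and 34.2 with BETi-211 and 17.2 and 21.4 with BETd-246. Thalidomide library 1 there was the highest of all 24 libraries. The BETi-211 change in MDA-MB-231 was 0.53 (adjusted p 0.0677, not called), and without that library it was 0.88 (adjusted p 1.23e-06). The BETd-246 changes were -0.12, -0.34 and -0.05, not called. Without thalidomide library 1 the MDA-MB-231 value was 0.0007, and without thalidomide library 2, which leaves library 1 alone in its group, it was -0.69 (adjusted p 1.63e-05).

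The other Pol II genes changed little. POLR2B, the second-largest subunit, was not called (-0.10 to 0.07). POLR2D, which forms the stalk with POLR2G, was 24.5, 24.2, 23.3 and 22.5 FPKM in the MDA-MB-157 controls, 21.3 and 22.3 with BETi-211 and 17.4 and 16.7 with BETd-246. It fell with BETd-246 by 0.45, 0.38 and 0.30 (SE 0.05, largest adjusted p 5.46e-05 with limma), the value in MDA-MB-468 being -0.11 and not called under median-of-ratios scaling. Its stalk partner POLR2G was 64.1, 65.2, 58.9 and 67.4 FPKM in the MDA-MB-231 controls, 69.6 and 73.7 with BETi-211 and 77.0 and 75.5 with BETd-246. POLR2G was higher with BETd-246 by 0.12, 0.25 and 0.18.

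POLR2E, POLR2I and POLR2L were called with BETd-246 in all 3 lines with small values, 0.17, 0.19 and 0.29 for POLR2E, 0.22, 0.22 and 0.29 for POLR2I and 0.24, 0.22 and 0.28 for POLR2L. POLR2L was also called with BETi-211 (0.24, 0.30 and 0.44). POLR2E in MDA-MB-468 was 69.9, 67.7, 77.0 and 76.1 FPKM in the controls, 81.2 and 84.4 with BETi-211 and 87.3 and 90.3 with BETd-246. POLR2I in MDA-MB-468 was 33.8, 29.4, 36.2 and 36.5 FPKM in the controls, 38.5 and 39.4 with BETi-211 and 41.9 and 41.3 with BETd-246. POLR2L in MDA-MB-468 was 99.7, 88.9, 107.4 and 108.7 FPKM in the controls, 134.0 and 139.8 with BETi-211 and 122.7 and 123.3 with BETd-246. POLR2F, a shared subunit, was called with BETd-246 in MDA-MB-468 alone (0.30, lost without BETd-246 library 1 at 0.27 or 2 at 0.33 and with equal FPKM totals at 0.20), where it was 37.0, 36.0, 41.8 and 38.0 FPKM in the controls, 44.3 and 45.3 with BETi-211 and 48.0 and 46.3 with BETd-246. The 4 genes belong to the core (POLR2E, POLR2F and POLR2L in the shared set, POLR2I in the Pol II set), and their calls in many cases hang on few libraries and on the scaling. In MDA-MB-157, POLR2E was not called without DMSO library 2 (0.11), thalidomide library 1 (0.16) or 2 (0.17) or BETd-246 library 2 (0.08), and POLR2G was not called without any single library except DMSO library 1 (0.09 to 0.16). POLR2I and POLR2L there were not called without DMSO library 2 (0.16 each), thalidomide library 1 (0.20 and 0.23), BETd-246 library 1 (0.21 and 0.26) or 2 (0.23 and 0.22). In MDA-MB-231, POLR2E was not called without DMSO library 2 (0.18), thalidomide library 1 (0.13) or BETd-246 library 1 (0.14), and POLR2I and POLR2L were not called without DMSO library 1 (0.21 and 0.20), DMSO library 2 (0.22 and 0.24), thalidomide library 1 (0.14 and 0.13) or BETd-246 library 1 (0.14 each). In MDA-MB-468, POLR2G was not called without BETd-246 library 1 (0.14), nor POLR2L without BETd-246 library 1 (0.29) or 2 (0.28). The POLR2L call with BETi-211 was lost in MDA-MB-157 without DMSO library 2 (0.17), thalidomide library 1 (0.24) or either BETi-211 library (0.24), and in MDA-MB-231 without BETi-211 library 2 (0.28). Exon bases opposite another gene made up 94.9% in POLR2I (OVOL3, TBCB and AD001527.2) and 22.5% in POLR2L (CD151). POLR2J has near-identical copies and is uncertain. POLR2C, POLR2F, POLR2H and POLR2K were called in at most 2 lines with any compound.

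Setting BETd-246 at 100 nM directly against BETi-211 at 1000 nM compares unequal doses. By line, 22, 17 and 21 members were called, beside 46.5%, 41.7% and 43.3% of all genes. Of these, 11, 5 and 10 were higher with BETd-246 (24.2%, 17.8% and 20.1% of all genes) and 11, 12 and 11 lower (22.3%, 23.9% and 23.2%). In all 3 lines, 9 members were lower with BETd-246 (20.5% of members, 14.5% of all genes): POLR2A, MED26, MED9, MED17, MED18, MED29, MED19, CDK8 and MED20. The 3 that were higher in all lines (6.82%, 9.19%) were MED6, MED24 and MED13L. The MED13L call was lost in MDA-MB-157 whichever library was left out (0.17 to 0.19) and in MDA-MB-468 without BETi-211 library 1 (0.16) or BETd-246 library 2 (0.12), and the MED20 call in MDA-MB-231 under median-of-ratios scaling (-0.08). On the average over lines the largest difference was that of MED26, at -1.52, -1.15 and -1.25 (SE 0.08, largest adjusted p 6.93e-09 with limma). MED9 differed by -1.13, -1.33 and -0.95 and MED17 by -0.69, -0.85 and -1.02. MED18 differed by -0.66, -0.57 and -0.64, and CDK8 by -0.22, -0.34 and -0.28. POLR2A differed by -1.34, -0.88 and -1.29, the MDA-MB-231 call being lost without BETi-211 library 1 (-0.80) or BETd-246 library 1 (-0.73). MED6 was the member with the largest opposite difference, 0.38, 0.38 and 0.41 (largest adjusted p 0.000301).

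For MED7 the compounds differed in MDA-MB-157 (-0.35, adjusted p 0.00164 with limma) and not detectably in MDA-MB-231 (0.02, 95% interval -0.141 to 0.184) or MDA-MB-468 (-0.07, interval -0.233 to 0.092). Without BETd-246 library 2, however, the MDA-MB-231 difference of MED7 was 0.19 and called, as it was under quantile normalization (0.22). For MED13 the intervals of the difference were -0.2 to 0.061, -0.23 to 0.03 and -0.262 to -0.001, none called by line, while the average over lines was called (-0.10, interval -0.176 to -0.025, adjusted p 0.0214). For MED1 they were -0.173 to 0.21, -0.112 to 0.27 and -0.035 to 0.347, and none was called.

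**Figure D3:**
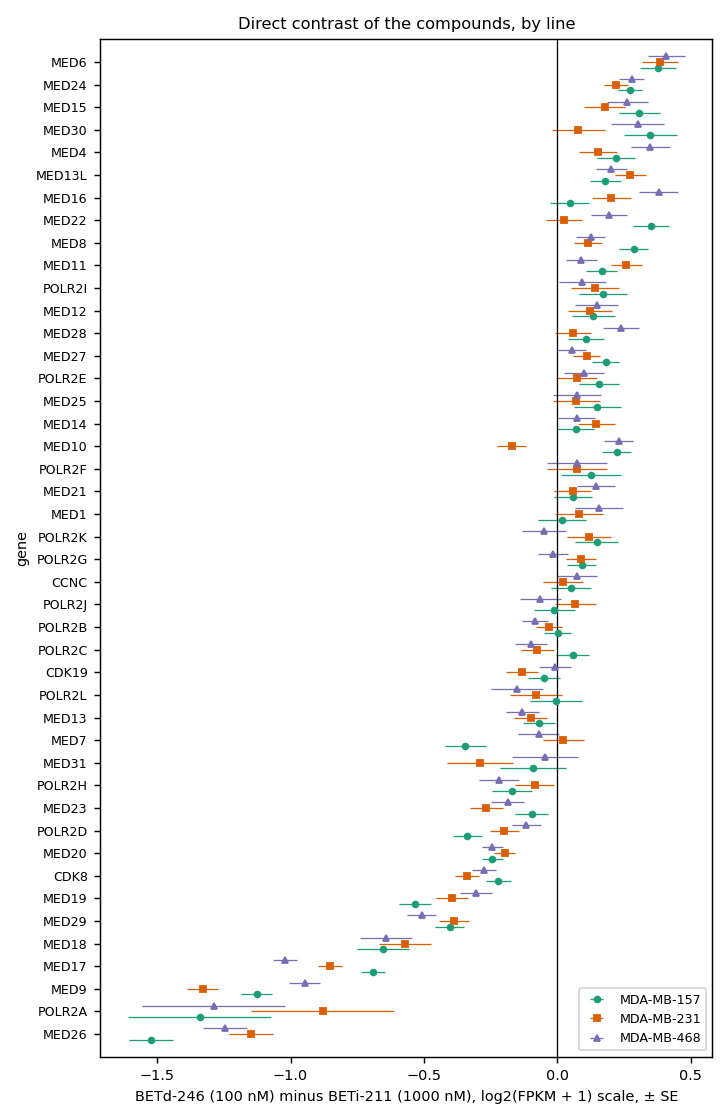
Difference between BETd-246 (100 nM) and BETi-211 (1000 nM) for each member (rows) in MDA-MB-157 (circles), MDA-MB-231 (squares) and MDA-MB-468 (triangles), on the log2(FPKM + 1) scale, with the standard error of the fit. MED26, POLR2A and MED9 lie farthest to the left and MED6 to the right, with all 3 lines on the same side for each.

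Thalidomide against DMSO gave 0 called members in every line with limma, beside 0.184%, 0% and 0% of all genes. Over all genes, 26, 0 and 0 were called, and 2093, 766 and 1980 had an unadjusted p below 0.05. Leaving out DMSO library 1 of MDA-MB-157 gave 3 called members, and leaving out thalidomide library 2 of MDA-MB-231, which leaves library 1 alone in its group, gave 12. The BETd-246 effect differed for 5 members in MDA-MB-157 against MDA-MB-231, for 3 in MDA-MB-157 against MDA-MB-468 and for 4 in MDA-MB-231 against MDA-MB-468, beside 11.2%, 13.1% and 13.3% of all genes.

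Before any effect of the compounds, the lines differed in most members, as they did in most genes. Between the controls, 42 of 44 members were called for MDA-MB-157 against MDA-MB-231, 37 for MDA-MB-157 against MDA-MB-468 and 39 for MDA-MB-231 against MDA-MB-468, beside 87.4%, 88% and 86.2% of all genes. The median control level of the 44 members was 17.6, 21.5 and 17.1 FPKM, and the highest was POLR2L in MDA-MB-157 (114.1 FPKM) and MDA-MB-231 (150.3 FPKM) and POLR2G in MDA-MB-468 (148.7 FPKM). The kinase genes were exchanged in rank: CDK8 averaged 7.83, 15.9 and 17.1 FPKM and CDK19 16.5, 4.499 and 11.1 FPKM, so CDK19 was above CDK8 in MDA-MB-157 and below it in the other lines. CCNC averaged 80.7, 43.2 and 140.8 FPKM.

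MED16, a tail subunit, was nearly silent in MDA-MB-157. Its controls read 0.171, 0.248, 0.339 and 0.451 FPKM there, 14.7, 14.2, 14.3 and 16.03 in MDA-MB-231 and 11.1, 10.6, 13.9 and 13.8 in MDA-MB-468. The BETi-211 and BETd-246 libraries of MDA-MB-157 were as low, at 0.362, 0.376, 0.385 and 0.441 FPKM. The difference of MDA-MB-157 from the other lines was -3.60 and -3.35 (SE 0.05, largest adjusted p 7.04e-19 with limma). MED16 lies at chr19:867630-893218 on GRCh38. Among its neighbours in the table, CFD was also near 0 in MDA-MB-157 (0.00656 FPKM against 1.83 and 1.52). PLPPR3 went the other way (23.2 FPKM against 0.167 and 0.0757), and R3HDM4 (13.2 against 20.5 and 16.2) and WDR18 (7.64 against 20.9 and 20.6) were expressed in all 3 lines. With BETd-246, MED16 was called in MDA-MB-468 (0.26), but not without BETd-246 library 2 (0.13), and with BETi-211 it was called in MDA-MB-231 (-0.26).

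MED14 controls read 32.6, 34.0, 34.0 and 35.4 FPKM in MDA-MB-157, 22.1, 21.8, 25.9 and 21.1 in MDA-MB-231 and 6.48, 7.04, 6.59 and 6.42 in MDA-MB-468, without overlap. MDA-MB-468 was lower than MDA-MB-157 by a log2 difference of 2.198 and lower than MDA-MB-231 by 1.63 (SE 0.05, largest adjusted p 5.94e-15 with limma). Its neighbour CXorf38 followed the same order (23.96, 12.3 and 4.16 FPKM) and ATP6AP2 did not (167.4, 38.1 and 42.5 FPKM). MED25, a tail subunit, read 4.58, 3.54, 5.20 and 5.15 FPKM in the MDA-MB-157 controls, 13.5, 13.6, 14.95 and 13.7 in those of MDA-MB-231 and 15.9, 16.3, 17.5 and 20.8 in those of MDA-MB-468, lowest in MDA-MB-157 (differences of -1.42 and -1.73). Its neighbours AKT1S1 and NUP62 were also lowest in MDA-MB-157, and FUZ was highest there. POLR2E averaged 34.3, 105.6 and 72.7 FPKM, and POLR2G 57.5, 63.9 and 148.7 FPKM.

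**Figure D4:**
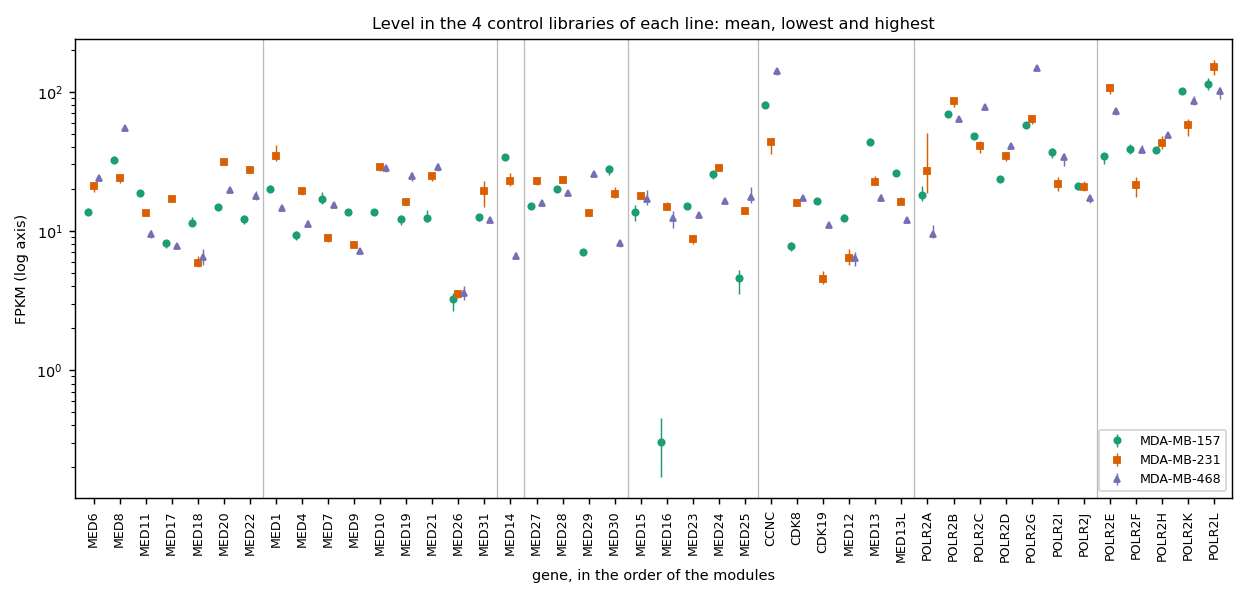
Mean FPKM (log axis) of each of the 44 members over the 4 control libraries of a line, with bars from the lowest to the highest library, by module from left to right. MED16 in MDA-MB-157 is the single point below 1 FPKM, and the long bar of POLR2A in MDA-MB-231 reaches up to 50.5 FPKM in thalidomide library 1.

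Other parts of the transcription machinery were set beside the members. Of 33 general transcription factor genes, which place Pol II at promoters, 17, 13 and 8 fell and 5, 5 and 5 rose with BETd-246 in the 3 lines, beside 32.4%, 33.3% and 33.7% of all genes lower and 19%, 14.8% and 20.1% higher. With BETi-211, 11, 12 and 12 fell and 5, 7 and 7 rose, beside 30.9%, 31.4% and 32.5% lower and 14.9%, 18.7% and 21.3% higher. These shares of all genes are also the background of the lists that follow. GTF2E1, a TFIIE subunit, fell by 1.32 averaged over the lines with BETd-246 and TAF5, a TFIID subunit, by 0.94, while TAF10 rose by 0.25 and TAF6 by 0.21. GTF2B, the factor TFIIB that bridges TBP and Pol II, was singled out after its values were seen because it had the pattern of MED26. It fell with BETd-246 by 0.88, 0.51 and 0.78 and rose with BETi-211 by 1.11, 1.13 and 1.59 (largest adjusted p 8.91e-05 with limma).

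Of 19 subunits particular to Pol I or Pol III, 13, 13 and 11 fell and 0, 1 and 1 rose with BETd-246. With BETi-211, 11, 15 and 14 fell and 3, 2 and 2 rose. POLR1C fell by 1.203 and POLR1B by 0.67 averaged over the lines with BETd-246, and POLR3GL rose by 0.18. Of 14 measured Integrator genes, whose complex cleaves nascent transcripts, 7, 6 and 6 fell and 2, 1 and 3 rose with BETd-246, and 9, 8 and 7 fell and 1, 1 and 0 rose with BETi-211. INTS5 fell by 1.18 and INTS6 by 1.09 on average with BETd-246, and INTS1 (0.12) and CPSF3L (0.11) were higher.

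Of 14 measured Pol II assembly factors and CTD phosphatases, 7, 6 and 5 fell and 0, 1 and 4 rose with BETd-246, and 9, 9 and 8 fell and 1, 2 and 1 rose with BETi-211. CTDP1, the CTD phosphatase FCP1, fell by 0.62 and GPN2, a GTPase of Pol II import, by 0.52 on average with BETd-246, and GPN3 (0.12) and SSU72 (0.09) were higher. The median change with BETd-246 was -0.134, -0.099 and -0.045 in the general factors and -0.226, -0.338 and -0.28 in the Pol I and Pol III subunits, beside the member medians given above.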

How the data were processed

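Per the labels' protocols, libraries were made from rRNA-depleted RNA with a TruSeq kit that does not mark strand. The deposited values are FPKM, 1 column for each of the 24 libraries, as judged from the values, and for the program behind them, the annotation and the gene filter no source used here gives a name. The build GRCh38.p5 and the tools Bowtie 0.12.8 and bcl2fastq 2.17.1.14 are named in the submitters' processing notes. The table holds no counts, so no counting interval was computed, and 0 sample columns were without a group.

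From these values, log2(FPKM + 1) of 14114 genes was fitted with limma 3.58.1 in R 4.3.3, with 12 group means and a variance trend (12 residual and 3.32 prior degrees of freedom). Contrasts were taken against the mean of DMSO and thalidomide of the same line, between the compounds and between lines, and p-values were Benjamini-Hochberg adjusted over all genes. The procedure was run on simulated data with known changes and independent noise. Such data cannot test the choice of scaling or the effect of a library that stands apart. Gene positions are from GENCODE v29 and promoters from RefSeq. The members and gene lists were chosen with earlier results of these data known. All members are named. Library values are given for the catalytic and best known subunits and for the largest called changes by line, by average and between the controls, in full or for the lines described. In the other gene lists up to 2 genes each way are named by the BETd-246 average. Alternatives covered the pseudocount (0.1), a filter (highest group mean of at least 5 FPKM, 11482 genes), 3 scalings, either control alone, each line alone, no trend, a replicate block and leaving out each library.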

Additional observations from a re-analysis of the deposited data

Results flagged for a closer look

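A difference between 2 lines in the effect of a compound passed limma's test (adjusted p below 0.05) for the following members, given as the first line minus the second on the log2 scale. What lies behind these differences was not tested. They were not followed member by member when single libraries were left out.

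For BETd-246, MED17 differed by 0.37 for MDA-MB-157 minus MDA-MB-468, and by 0.42 for MDA-MB-231 minus MDA-MB-468, so it fell furthest in MDA-MB-468. MED26 differed by -0.44 for MDA-MB-157 minus MDA-MB-231 and by -0.54 for MDA-MB-157 minus MDA-MB-468. MED19 differed for the same pairs by -0.24 and -0.29. MED7 differed by -0.31 for MDA-MB-157 minus MDA-MB-231 and by 0.31 for MDA-MB-231 minus MDA-MB-468, being least reduced in MDA-MB-231. The limma adjusted p values were 0.0406 and 0.0365. With 1 library left out, the MED7 change in MDA-MB-231 ran from -1.12 to -0.79, beside -0.95 with all libraries. MED22 (0.35) and MED23 (0.25) fell further in MDA-MB-231 than in MDA-MB-157. For MDA-MB-231 minus MDA-MB-468, MED10 differed by -0.29 and MED16 by -0.32.

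For BETi-211, MED17 differed by -0.21 for MDA-MB-157 minus MDA-MB-231 and by 0.26 for MDA-MB-231 minus MDA-MB-468, and MED9 by -0.27 and 0.27 for these pairs, both being least reduced in MDA-MB-231. MED10 differed by -0.26 and MED16 by 0.33 for MDA-MB-157 minus MDA-MB-231. MED16 averaged 0.302 FPKM in the MDA-MB-157 controls and 14.8 in those of MDA-MB-231. Its change with BETi-211 was 0.08 in MDA-MB-157, not called, and -0.26 in MDA-MB-231. The scale used understates changes at so low a level, so this contrast cannot tell whether the response of MED16 differed between these lines. MED7 differed by 0.27 and MED27 by -0.28 for MDA-MB-157 minus MDA-MB-468. MED30 differed by 0.42 for MDA-MB-231 minus MDA-MB-468. The background is high: 16.5%, 21.6% and 21.9% of all genes were called in the 3 pairs of lines.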

How the results depend on the processing

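With 2 libraries a group, small changes depend on the scaling and on single libraries, and the FPKM carry no depth. Among single members, leaving out 1 library kept the direction and side of the threshold in 2956 cases, lost the call in 173, gained it in 39 and reversed it in 0. The other settings gave 4485, 182, 201 and 16. The causes were not tested.

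Members called higher with BETd-246 numbered 13, 16 and, on the average over lines, 18 with quantile normalization in MDA-MB-157, MDA-MB-468 and the average. With median-of-ratios scaling they were 18, 19 and 18 in the 3 lines and 24 on average, and the lower calls were 11 in MDA-MB-231 and 13 on average, beside 20 lower and 10 higher on average as deposited. With equal FPKM totals the higher calls were 1, 1 and 5, and 5 on average. Against thalidomide alone they were 2, 3 and 4, against DMSO alone 3 in MDA-MB-231, with no variance trend 3 in MDA-MB-157 and with MDA-MB-231 fitted alone 2. For BETi-211 the higher calls were 10 in MDA-MB-157 with quantile normalization and also 10 with median-of-ratios scaling, 13 in MDA-MB-231 with median-of-ratios scaling, 4 with that line fitted alone, and 8 in MDA-MB-468 with equal totals. The direct contrast in MDA-MB-231 gave 26 with median-of-ratios scaling. Line differences of the BETd-246 effect gave 11, 7 and 7 with quantile normalization. They gave 2 for MDA-MB-157 against MDA-MB-231 with DMSO alone and 3 with thalidomide alone, and for MDA-MB-231 against MDA-MB-468 they gave 2 with a pseudocount of 0.1 and 1 with thalidomide alone.

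Signs reversed for BETd-246 in MDA-MB-231 with median-of-ratios scaling for CDK19 (0.15), CDK8 (0.14), MED13L (0.14), MED21 (0.0158), MED28 (0.0196) and MED29 (0.13), and for CDK19 with quantile normalization (0.28). In MDA-MB-468 they did so with quantile normalization for MED11 (0.17), MED12 (0.26), MED13L (0.19) and MED4 (0.10), and with median-of-ratios scaling for MED13L (0.14) and MED4 (0.0184). MED13L also reversed in MDA-MB-157 with median-of-ratios scaling (0.15). Between the controls of MDA-MB-231 and MDA-MB-468, CDK8 reversed with median-of-ratios scaling (0.0134) and MED26 with quantile normalization (0.20).

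Leaving out each library in turn, lower calls with BETd-246 ranged 15 to 17, 14 to 18 and 14 to 16 and higher calls 1 to 6, 1 to 12 and 4 to 8. With BETi-211 the lower calls ranged 17 to 19, 17 to 22 and 17 to 20 and the higher calls 4 to 7, 5 to 13 and 9 to 12. The direct contrast ranged 16 to 21, 13 to 19 and 15 to 18. Thalidomide against DMSO ranged 0 to 3, 0 to 12 and 0 to 0. Line differences of the BETd-246 effect ranged 0 to 9, 2 to 4 and 2 to 9, and control differences 41 to 42, 36 to 38 and 38 to 39. On the average over lines, BETd-246 gave 19 to 22 lower and 8 to 12 higher, BETi-211 20 to 24 lower and 10 to 14 higher, and the direct contrast 27 to 31.

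Deviations of same-numbered libraries correlated weakly and with either sign (r from -0.11 to 0.15, -0.21 to 0.2 and -0.12 to 0.33 over 6 pairs of groups in each line). The numbers were therefore not taken to pair the samples, although r reached 0.33 in MDA-MB-468. A fit with the replicate number as a block gave 16, 17 and 17 lower and 5, 4 and 8 higher calls with BETd-246, 19, 22 and 21 lower and 7, 7 and 12 higher with BETi-211, and 23, 17 and 21 in the direct contrast.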

Other observations

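The 14 members that fell with BETd-246 in all 3 lines had a median gene span of 17837.5 bases, and the other 30 members 23002 bases. These values are a description with no test. Exon bases of 22 members lie opposite another annotated gene, and for 12 of them that gene is in the table. On the same strand, exon bases of 9 members overlap another annotated gene, and for 0 of them that gene is in the table.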
